A study of Mus musculus with 12 samples.

Results

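Transcripts of 10 mammary secretory genes were followed in lung RNA of mice that carry a mammary tumour transgene, asking which lungs held them and whether their level differed with genotype. The genes were Csn1s1, Csn1s2a, Csn2 and Csn3 (the caseins), Wap and Lalba (whey proteins), Wfdc18, Btn1a1, Glycam1 and Elf5, and each matched 1 row by gene name, 10 of 56748 rows of the deposited count table. The 12 libraries came from lung tissue taken at 4.5 months, 4 per genotype. WT lungs were MMTV-Cre; MMTV-PyMT, C3 KO lungs carried in addition the C3Tdt allele, and S1pr1 KO lungs carried S1pr1 fl/fl. Every animal, WT included, thus had the MMTV-PyMT oncogene and, by the series' design text, MMTV-Cre. Both are driven by a viral promoter that is active mainly in mammary epithelium, and WT here means wild type for C3 and S1pr1 only. The labels mark all 12 samples as lung metastasis, and no count of nodules was used here. The labels do not say whether 4 libraries of 1 genotype are 4 mice, and p-values here refer only to the spread between libraries, which may be technical. The WT strain label reads MMTV-PyMT alone.

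Milk is made by luminal alveolar cells of the mammary gland. Prolactin binds its receptor there, JAK2 activates the transcription factors STAT5A and STAT5B, and these, together with the ETS-family factor ELF5, switch on the casein and whey genes. Caseins form the calcium-carrying micelles of milk, with kappa-casein (Csn3) holding the micelle surface. Tumours that start in luminal cells can keep part of this programme, while healthy lung epithelium has no known use for caseins. Some of the 10 genes are nevertheless expressed outside the gland: Elf5 in lung epithelium and Glycam1 in the high endothelial venules through which lymphocytes enter lymphoid tissue.

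The casein genes are shown first by the DNA before their start sites, because STAT5 binding sites of the form TTCNNNGAA are a known feature of casein promoters and most of the members are caseins or genes of the same lactation programme. RefSeq promoters on GRCm38.p6 were matched by symbol for 8 of the 10 genes, all but Csn3 and Btn1a1, and the 250 bases before the annotated start were searched. The motif reads the same on both strands. It was found in 3 of the 8 genes, Csn1s1, Csn2 and Glycam1, and in 7.02% of all 32851 promoter windows of that length. In the lines that follow capitals mark the motif.
Csn1s1, chr5:87665958-87666207, plus strand: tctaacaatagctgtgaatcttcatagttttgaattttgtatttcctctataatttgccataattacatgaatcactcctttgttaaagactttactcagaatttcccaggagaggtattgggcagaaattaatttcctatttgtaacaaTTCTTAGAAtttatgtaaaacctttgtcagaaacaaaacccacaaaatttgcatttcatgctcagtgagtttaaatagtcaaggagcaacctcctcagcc
Csn2, chr5:87699426-87699675, minus strand: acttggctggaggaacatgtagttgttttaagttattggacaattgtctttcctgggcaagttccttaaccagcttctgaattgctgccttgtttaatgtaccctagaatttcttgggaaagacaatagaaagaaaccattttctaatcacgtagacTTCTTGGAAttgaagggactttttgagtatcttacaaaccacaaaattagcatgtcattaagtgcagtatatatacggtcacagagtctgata
Glycam1, chr15:103565082-103565331, minus strand: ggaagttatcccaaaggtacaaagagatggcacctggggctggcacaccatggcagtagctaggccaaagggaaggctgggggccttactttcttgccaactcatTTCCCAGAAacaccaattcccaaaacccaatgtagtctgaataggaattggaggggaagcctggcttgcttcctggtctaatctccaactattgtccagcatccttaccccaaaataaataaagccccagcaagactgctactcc
Wfdc18, chr11:83708754-83709003, plus strand: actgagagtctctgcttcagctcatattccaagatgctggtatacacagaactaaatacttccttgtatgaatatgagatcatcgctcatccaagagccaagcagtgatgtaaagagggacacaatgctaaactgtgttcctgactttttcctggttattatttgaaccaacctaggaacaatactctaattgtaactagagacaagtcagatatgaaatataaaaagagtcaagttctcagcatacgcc
The motif began 100 bases before the start in Csn1s1, 93 in Csn2 and 145 in Glycam1. These letters are not in the Wfdc18 window, which is shown because Wfdc18 was one of the most variable members, nor in those of Csn1s2a, Wap, Lalba or Elf5. A match is a description of the sequence. These windows are on a different build from the gene coordinates given below, which are on GRCm39.

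Total counts per library lay between 32274797 and 53063470, and 3 counts, the limit taken for a count of 0, corresponded to 0.0568 to 0.0891 CPM (counts scaled to a library total of 1e+06 after TMM normalization). Levels below are CPM unless stated, and group values are mean ± SD. In 2 libraries the targeted gene did not follow the label. C3 was at 1420 in the library labelled C3 KO 4 against 787 to 1020 in WT, and S1pr1 was at 366 in the library labelled S1pr1 KO 2 against 295 to 491 in WT. In the other knockout libraries the targeted gene was lower than in WT but still read. C3 was at 475, 465 and 601 in C3 KO 1 to 3, and S1pr1 at 132, 142 and 154 in S1pr1 KO 1, 3 and 4. Skeletal muscle markers, 12 genes summed, stood at 288 in WT 2 and 201 in the library labelled S1pr1 KO 2 and at 11.2 to 21.1 in the other 10. Lung identity was clear in every library, with 12 alveolar epithelial markers summing to 21100 to 30900.

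Csn3, which encodes kappa-casein (ENSMUSG00000001622, GRCm39 chromosome 5 from 88073438 to 88080524, plus strand), gave by far the most casein reads, 2663 over the 12 libraries. It was at 8.03, 8.23, 3.07 and 0.247 CPM in WT 1 to 4, at 0.174, 3.75, 2.11 and 0.102 in C3 KO 1 to 4, and at 0.89, 1.86, 19.0 and 25.4 in S1pr1 KO 1 to 4. The highest 2 values belonged to S1pr1 KO 3 and 4, followed by WT 2 and WT 1, and the lowest 3 to WT 4, C3 KO 1 and the library labelled C3 KO 4, with 9, 6 and 4 reads. The 3 groups overlapped. From the lowest to the highest library the level differed 248-fold, and within groups it differed 33.3-fold in WT, 36.6-fold in C3 KO and 28.6-fold in S1pr1 KO. The lowest library rested on 4 reads, for which the exact Poisson 95% interval is 1.09 to 10.2, so these folds are rough. In whole tissue, fewer cells of a type and less RNA per cell cannot be told apart.

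Wfdc18 encodes a small protein with the four-disulfide core also found in whey acidic protein (ENSMUSG00000000983, chromosome 11 from 83599841 to 83602174, plus strand). It was at 5.55, 7.32, 1.20 and 0.302 CPM in WT 1 to 4, at 0.174, 2.90, 2.61 and 0.358 in C3 KO 1 to 4, and at 1.14, 2.29, 5.10 and 16.1 in S1pr1 KO 1 to 4. The libraries fell in nearly the order of Csn3: S1pr1 KO 4 was highest for both genes, and the same 3 libraries, WT 4, C3 KO 1 and the library labelled C3 KO 4, were lowest for both. The range was 93.1-fold. Over the 12 libraries the SD of log2 CPM was 2.56 for Csn3 and 1.97 for Wfdc18, where the median of all 20229 genes tested was 0.228 and 0.143% and 0.544% of them, respectively, varied more.

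**Figure D1:**
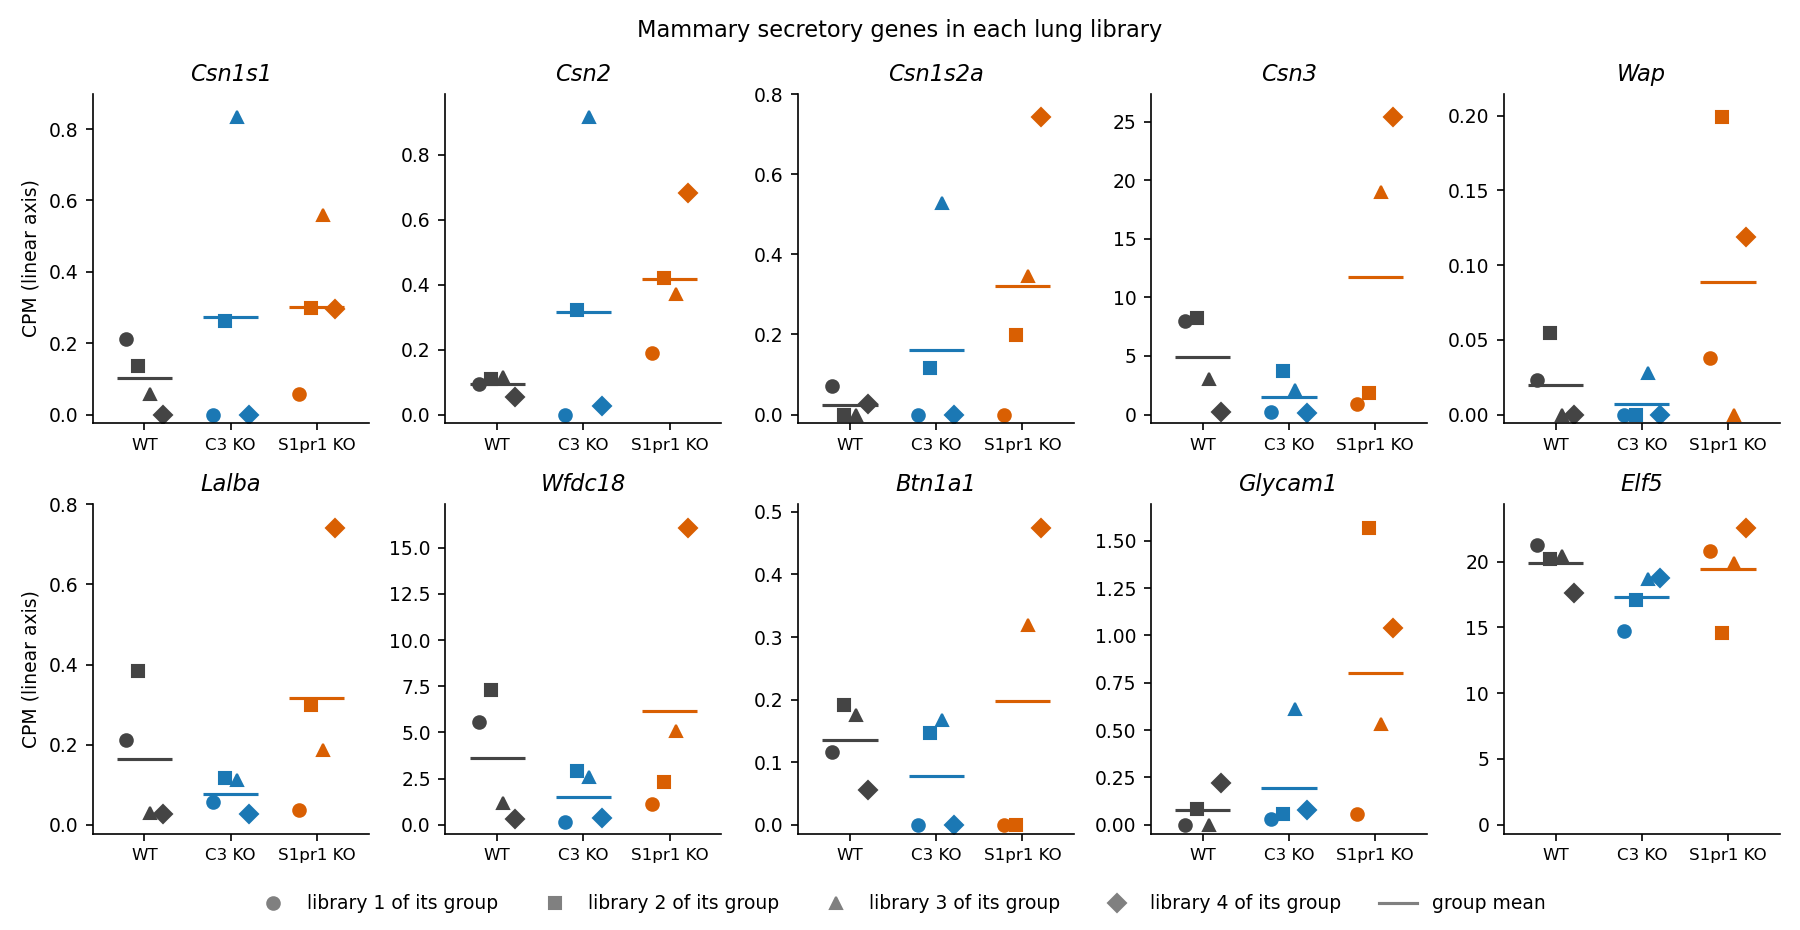
Level of each of the 10 genes in CPM (linear axes that differ between panels) in the 12 lung libraries, by genotype; each symbol is 1 library, its shape gives the library's number in its group, and bars are group means. Csn3 and Wfdc18 range from 0.102 to 25.4 and from 0.174 to 16.1 CPM with all groups overlapping, whereas Elf5 stays between 14.6 and 22.6.

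The other caseins were rare but were read in most lungs. Csn2, beta-casein (ENSMUSG00000063157, chromosome 5 from 87840483 to 87847489, minus strand), had 4, 4, 4 and 2 reads in WT 1 to 4, 0, 11, 33 and 1 in C3 KO 1 to 4, and 10, 17, 14 and 23 in S1pr1 KO 1 to 4. Every S1pr1 KO library lay above every WT library, from 0.189 to 0.683 CPM against 0.0549 to 0.117, while C3 KO spanned both. Csn1s1, alpha-s1-casein (ENSMUSG00000070702, chromosome 5 from 87814067 to 87830437, plus strand), had 9, 5, 2 and 0 reads in WT, 0, 9, 30 and 0 in C3 KO, with 3, 12, 21 and 10 in S1pr1 KO. Csn1s2a, an alpha-s2-like casein (ENSMUSG00000061937, chromosome 5 from 87922426 to 87936656, plus strand), had 3, 0, 0 and 1 reads in WT, 0, 4, 19 and 0 in C3 KO, with 0, 8, 13 and 25 in S1pr1 KO. C3 KO 3 held the most reads of Csn2 and Csn1s1, although it was the seventh library by Csn3. For a count of 10 the exact Poisson 95% interval is 4.80 to 18.4, so libraries that differ by a few reads are not distinguishable at this depth. Such intervals cover counting error only.

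The proportions of the milk proteins also differed between lungs. On the FPKM scale, which divides by the listed gene length, Csn3 was 84.2%, 77.1% and 92.0% of the summed level of Csn1s1, Csn1s2a, Csn2, Csn3, Wap and Lalba in WT 1, 2 and 3, and 90.4% and 81.0% in S1pr1 KO 3 and 4. It was 46.4% in C3 KO 3 and 37.5% in the library labelled S1pr1 KO 2, 2 lungs with over 100 reads of the 6 genes each. The sum itself reached 7.50 FPKM in S1pr1 KO 4 and 5.01 in S1pr1 KO 3, and in WT 4, C3 KO 1 and the library labelled C3 KO 4 it was 0.110, 0.116 and 0.0617. The lengths listed were 6926 bases for Csn2 and 4152 for Csn3, and a longer listed length lowers FPKM at the same count.

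Of the whey protein genes Wap was at the limit of detection, while Lalba was rare but read in every library, with 82 reads in all. Wap, the major rodent whey protein (ENSMUSG00000000381, chromosome 11 from 6585482 to 6588637, minus strand), had 18 reads in all, 8 of them in the library labelled S1pr1 KO 2 and 4 in S1pr1 KO 4. No other library had more than 2, and 6 libraries had 0, which allows up to 3 reads in each. Lalba, alpha-lactalbumin, which turns a galactosyltransferase into lactose synthase (ENSMUSG00000022991, chromosome 15 from 98378281 to 98380602, minus strand), had 9, 14, 1 and 1 reads in WT 1 to 4, 2, 4, 4 and 1 in C3 KO 1 to 4, and 2, 12, 7 and 25 in S1pr1 KO 1 to 4. It was highest in S1pr1 KO 4, WT 2 and the library labelled S1pr1 KO 2, and no group stood clear of another.

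Btn1a1, butyrophilin of the milk fat globule membrane (ENSMUSG00000000706, chromosome 13 from 23641162 to 23650071, minus strand), had 5, 7, 6 and 2 reads in WT 1 to 4, 0, 5, 6 and 0 in C3 KO 1 to 4, and 0, 0, 12 and 16 in S1pr1 KO 1 to 4. The S1pr1 KO group held both the 2 highest values and 2 values of 0. Glycam1, a mucin-like glycoprotein of milk and of high endothelial venules (ENSMUSG00000022491, chromosome 15 from 103471186 to 103473508, minus strand), had 0, 3, 0 and 8 reads in WT, 1, 2, 22 and 3 in C3 KO, with 3, 63, 20 and 35 in S1pr1 KO. Its order was unlike that of Csn3, with the top value of 1.57 CPM in the library labelled S1pr1 KO 2 and none to 3 reads in WT 1, 2 and 3. Of the high endothelial markers, Madcam1 had 0 reads in 7 libraries and at most 0.0868 CPM. The sulfotransferase Chst4 was present throughout at 2.94 to 10.4 CPM and was highest in the same library as Glycam1. Its next values, 7.57 and 7.04, were in the library labelled C3 KO 4 and in WT 1, with 3 and 0 Glycam1 reads. Over that list Spearman rho with Glycam1 ran from -0.52 (Chst2) to 0.18 (Chst4). The 10 genes of that list summed to 131 to 158 CPM over the WT and C3 KO libraries, and to 132 to 195 over S1pr1 KO, where the library labelled S1pr1 KO 2 was lowest. Over other lists rho with Glycam1 reached higher: -0.15 (Lipe) to 0.68 (Car3) for adipocyte genes and -0.34 (Snai2) to 0.83 (Oxtr) for basal and myoepithelial genes. For genes of lactation signalling and luminal identity it ran from -0.57 (Erbb2) to 0.78 (Prlr). The library labelled S1pr1 KO 2 was also highest in the adipocyte gene Adipoq, at 32.9 CPM, and held 201 CPM of skeletal muscle markers. The part of high endothelial or other cells in the Glycam1 level was not tested.

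Elf5, the ETS factor that drives alveolar differentiation in the gland (ENSMUSG00000027186, chromosome 2 from 103242033 to 103281334, plus strand), varied far less over the libraries than every other member. It was at 21.3, 20.2, 20.4 and 17.6 CPM in WT 1 to 4, at 14.7, 17.1, 18.7 and 18.8 in C3 KO 1 to 4, and at 20.8, 14.6, 19.9 and 22.6 in S1pr1 KO 1 to 4. The range was 1.55-fold, and its SD of log2 CPM, 0.201, lay near the median of all genes. In the library labelled C3 KO 4, where Csn3 was lowest, Elf5 was at 18.8, and in C3 KO 1 it was at 14.7. Lungs with few milk protein reads thus had Elf5 levels inside the range of the others.

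The number of members found in a lung followed the order of its Csn3 level only in part. At least 3 reads were found for all 10 genes in S1pr1 KO 4, for 9 in S1pr1 KO 3, in the library labelled S1pr1 KO 2 and in C3 KO 3, and for 8 in WT 1, WT 2 and C3 KO 2. The tally was 6 in S1pr1 KO 1, 5 in WT 3, 4 in WT 4 and the library labelled C3 KO 4, and 3 in C3 KO 1. In C3 KO 1 these 3 were Csn3 and Wfdc18, with 6 reads each, and Elf5. Over 100 reads of Csn3 were found in 3 WT lungs, 1 C3 KO lung and 2 S1pr1 KO lungs (714 and 856), and under 10 in 1 WT lung and 2 C3 KO lungs, while the lowest S1pr1 KO library, S1pr1 KO 1, had 47 reads of Csn3 and 60 of Wfdc18. In the 3 libraries lowest in Csn3, 3 counts were worth 0.0768 to 0.0868 CPM.

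Members differed in how closely they followed Csn3 over the 12 libraries on the log2 CPM scale. Wfdc18 followed it most closely (Pearson r = 0.95, permutation p = 1e-05, the smallest that 100000 resamples can give; Spearman rho = 0.94, permutation p = 4e-05). The Benjamini-Hochberg values over the 9 relations computed with Csn3 were 9e-05 and 0.00036, and r was 0.94 without C3 KO 1 and the library labelled C3 KO 4, the 2 libraries farthest from the median of Csn3. Within genotypes rho for Wfdc18 was 1, 0.8 and 1 in WT, C3 KO and S1pr1 KO, with 4 libraries each. Because 3 libraries lay well below the rest in Csn3, rho was also taken without them, and was 0.90 for Wfdc18.

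For the rarer members these relations rest on few reads. Lalba (r = 0.79, permutation p = 0.0027; rho = 0.78, permutation p = 0.00394; adjusted 0.00711 and 0.0118) and Btn1a1 (r = 0.79, permutation p = 0.00316; rho = 0.83, permutation p = 0.00126; adjusted 0.00711 and 0.00567) kept an r of 0.77 and 0.68 without the 2 farthest libraries and a rho of 0.62 and 0.85 without the 3 lowest. Csn1s1 (r = 0.83, permutation p = 0.00134; rho = 0.71, permutation p = 0.0117; adjusted 0.00603 and 0.0263) fell to a rho of 0.33 without the 3 lowest. Csn2 (r = 0.69, permutation p = 0.0128; rho = 0.55, permutation p = 0.0665; adjusted 0.023 and 0.0971) fell to a rho of -0.05, so that its relation rests on the lungs with almost no reads. Csn1s2a (r = 0.59, rho = 0.57), Elf5 (r = 0.55, rho = 0.54), Wap (r = 0.41, rho = 0.38) and Glycam1 (r = 0.20, rho = 0.20) did not pass after adjustment, with permutation p from 0.0466 to 0.524 for r and from 0.0557 to 0.527 for rho, adjusted 0.07 to 0.524 and 0.0971 to 0.527. Without the 2 farthest libraries their r was 0.44, 0.50, 0.20 and 0.07.

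**Figure D2:**
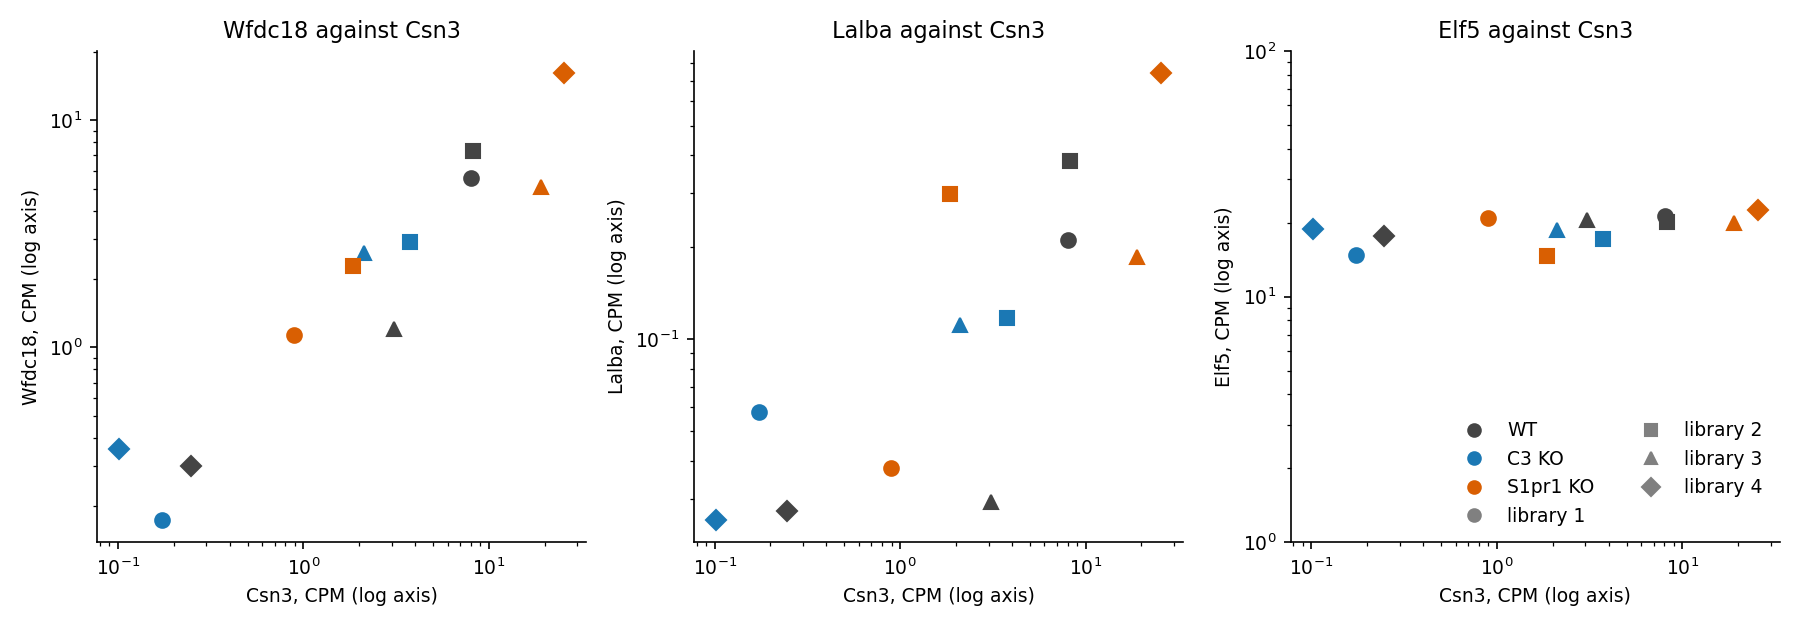
Wfdc18, Lalba and Elf5 against Csn3 in CPM (both axes logarithmic), 1 point per library, coloured by genotype and shaped by library number. Wfdc18 climbs with Csn3 over the 12 libraries (rho = 0.94), Lalba does so on few reads (rho = 0.78), and Elf5 stays between 14.6 and 22.6 CPM while Csn3 spans 248-fold.

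No member passed the test between genotypes. Of the 10 genes 6 passed the filter on low counts (Csn1s1, Csn2, Csn3, Glycam1, Wfdc18 and Elf5), and edgeR called 0 of these 6 in each of the 3 comparisons at an adjusted p under 0.05. Over all 20229 genes it called 0.00989% in C3 KO against WT, 1.35% in S1pr1 KO against WT and 0% in S1pr1 KO against C3 KO, where 2437 genes had an unadjusted p under 0.05 and DESeq2 called 317. At an unadjusted p under 0.05 edgeR gave 0, 2 and 1 of the 6 members, where 11%, 18% and 12% of all genes tested had such a p, and DESeq2 and limma voom also called 0. The 2 in S1pr1 KO against WT were Glycam1 and Csn2, which reached 10 reads in no WT library and passed the filter through other groups. With only S1pr1 KO and WT filtered and fitted, 3 members were left and 0 had such a p. Groups did not overlap for 1 member, Csn2 in S1pr1 KO against WT, where 11.3% of genes tested did not overlap, and for 0 members in C3 KO against WT (6.09% of genes) and S1pr1 KO against C3 KO (6.4%). Without a filter, which brought in Csn1s2a, Wap, Lalba and Btn1a1, edgeR again called 0 of 10 members, where it called 0.00553%, 0.742% and 0.0415% of 36139 genes in the same 3 comparisons. In that fit Csn1s2a was at a log2 value of 2.49 in C3 KO and 3.42 in S1pr1 KO against WT (edgeR adjusted p = 0.705 and 0.302), where the WT libraries held 4 reads in all. Lalba was at -1.05 and 0.89, Wap at -1.17 and 1.98 and Btn1a1 at -0.77 and 0.49 in the same order, with edgeR adjusted p from 0.534 to 0.901.

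In C3 KO against WT, Csn3 and Wfdc18 were lower and Csn1s1, Csn2 and Glycam1 higher by value. Csn3 averaged 1.53 ± 1.74 CPM in C3 KO and 4.89 ± 3.91 in WT (SD, n = 4), or -1.69 on the log2 scale (SE 1.21, edgeR adjusted p = 0.654), which ran from -2.62 (without C3 KO 2) to -1.29 (without the library labelled C3 KO 4) when 1 library was left out. For Wfdc18 the means were 1.51 ± 1.44 and 3.59 ± 3.38, or -1.26 on the log2 scale (SE 1.05, edgeR adjusted p = 0.709), with -1.78 without C3 KO 2 and -0.65 without WT 2. The values of Csn2, Csn1s1 and Glycam1, 1.72, 1.36 and 1.35, were carried by C3 KO 3: without it they were 0.27, -0.28 and -0.39. Elf5 was at -0.20 (SE 0.13, edgeR adjusted p = 0.614). The median over the 6 genes was 0.575, beside -0.000995 over all genes tested, but over all 10 members in the fit without a filter it was -0.48, with 4 above 0 and 6 below, beside 0.00642 over all genes of that fit. The sign of the median thus depends on the filter. Csn1s1, Csn2 and Glycam1 reached 10 reads in no WT library and passed through C3 KO and S1pr1 KO libraries. When only C3 KO and WT entered the filter they dropped out, and the 3 members left, Csn3, Wfdc18 and Elf5, all lay below 0.

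In S1pr1 KO against WT, 5 of the 6 genes that passed the filter were above 0 by value and Elf5 was at -0.03. Of these 5, Csn1s1, Csn2 and Glycam1 again passed through libraries of the groups where they were high, and dropped out when only S1pr1 KO and WT were filtered, so the tally of the 6 carries no weight. In the fit without a filter 9 of the 10 members lay above 0 and 1 below, with a median of 1.36, beside 0 over all genes of that fit. None was called there, and several members followed Csn3 over the libraries, so their signs are not independent. Glycam1 averaged 0.798 ± 0.65 CPM in S1pr1 KO and 0.0754 ± 0.104 in WT, the largest value of the comparison among the 6, or 3.35 on the log2 scale (SE 1.15, edgeR adjusted p = 0.153). It was 2.77 without the library labelled S1pr1 KO 2 and 4.73 without WT 4, and its adjusted p over the alternatives ran from 0.0638 (DESeq2) to 0.354. Csn2 averaged 0.417 ± 0.204 against 0.0938 ± 0.0278, or 2.09 on the log2 scale (SE 0.95, edgeR adjusted p = 0.273), higher in 4 of 4 S1pr1 KO libraries. Csn3 averaged 11.8 ± 12.3 against 4.89 ± 3.91, or 1.26 on the log2 scale (SE 1.14, edgeR adjusted p = 0.615), which was 0.56 without S1pr1 KO 4. Wfdc18 was at 0.77 (SE 1.00, edgeR adjusted p = 0.747) and turned to -0.34 without S1pr1 KO 4. Csn1s1 was at 1.47 (SE 1.15). Elf5 (SE 0.13) lay between -0.1 and 0.1 under the alternatives. 

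Among the 6 members that passed the filter, S1pr1 KO and C3 KO lungs differed most by value in Csn3, at a log2 fold change of 2.94 (SE 1.24, unadjusted p = 0.034, edgeR adjusted p = 0.376). Wfdc18 was at 2.02 (SE 1.05, edgeR adjusted p = 0.478) and Glycam1 at 2.00 (SE 1.02, edgeR adjusted p = 0.466). Without S1pr1 KO 4 the Csn3 value was 2.24 and that of Wfdc18 0.91, and without the library labelled C3 KO 4 that of Csn3 was 2.54. Glycam1 ran from 1.42 (without the library labelled S1pr1 KO 2) to 3.75 (without C3 KO 3). In the fit without a filter Wap was at 3.15, Lalba at 1.94, Btn1a1 at 1.25 and Csn1s2a at 0.94 (edgeR adjusted p = 0.55, 0.578, 0.706 and 0.793), Wap on 1 read in all of C3 KO and 14 in S1pr1 KO. All 10 members lay above 0 in that fit, with a median of 1.59, beside 0 over all its genes. None was called, and their signs are again not independent. Csn2 (0.37, SE 0.83) and Csn1s1 (0.11, SE 1.04) were near 0 and took either sign when single libraries were left out. These values near 0 depended on C3 KO 3: without it they were 1.82 and 1.75. With limma voom and quality weights they were 2.2 and 2.01 (limma adjusted p = 0.271 and 0.434). The approximate 95% interval for Csn3, 0.15 to 5.74, and those of the other 4 variable genes are several log2 units wide. That of Elf5 ran from -0.12 to 0.46. The comparisons share their groups and are not independent of each other.

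**Figure D3:**
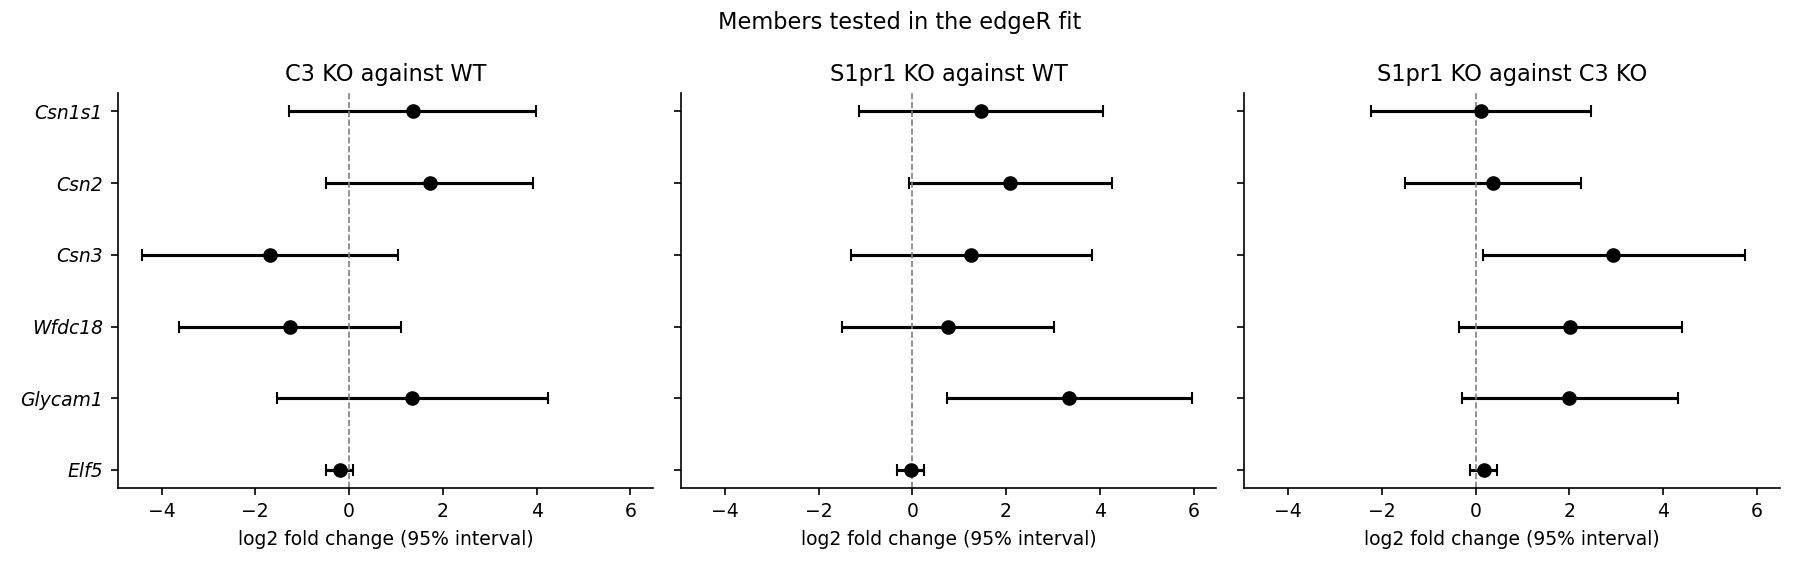
Log2 fold changes of the 6 members that passed the filter in the 3 genotype comparisons (horizontal axis, log2 scale), with approximate 95% intervals from the edgeR standard errors. All intervals but that of Elf5 span several log2 units, and no member passed at an adjusted p under 0.05.

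Between-group differences made up 27.0% of the variance of log2 CPM for Csn3, 22.1% for Wfdc18, 26.4% for Csn2, 14.5% for Csn1s1, 20% for Elf5 and 41.9% for Glycam1. Of the members below the filter it was 32% for Wap, 19.5% for Csn1s2a, 18% for Lalba and 10.1% for Btn1a1. By comparison, the median over the genes tested was 22.8%. The rest lay between libraries of one genotype and includes counting error, above all for members with few reads.

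Neighbouring genes of the casein locus showed little beyond the caseins. From Csn1s1 to Csn3, chromosome 5 from 87814067 to 88080524, the deposited table lists 14 genes over 266 kb, of which 7 are protein coding. Besides the 4 member caseins, Csn1s2b, a second alpha-s2-like casein, had 2 reads over the 12 libraries, and Odam, which encodes an odontogenic protein, and Prr27 had 0. The noncoding BC037156, which ends before Csn3 on the same strand, had 15. 1700066N21Rik, a noncoding gene listed on the opposite strand across Csn3, had 0, and it was the only listed gene that overlaps a member.

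No gene of the wider lactation lists passed the test between genotypes. Of 26 milk fat and lactation genes 20 were tested, and of 31 genes of lactation signalling and luminal identity 30 were tested. edgeR called 0 of them in each of the 3 comparisons, the lowest adjusted p being 0.0756, with median log2 fold changes against WT of 0.03 in both knockouts for the first list, and for the second of 0.03 (C3 KO) and 0.11 (S1pr1 KO). By mean FPKM the leading genes of the first list were the desaturase Scd1 (213), the water channel Aqp5 (124), the iron carrier Trf (111) and the mucin Muc1 (86.2), and of the second the epithelial keratins Krt8 (98.6), Krt19 (94.0) and Krt18 (63.7) and the adhesion protein Cdh1 (68.2). Aqp5 is also on the alveolar epithelium list used here, so the first list is not particular to mammary cells. Keratins of this kind are also made by normal lung epithelium, and Krt18 ranged only from 76.0 to 116 CPM. The prolactin receptor Prlr was at 0.398 to 1.54 CPM, Stat5a at 19.8 to 28.7 and Stat5b at 95.4 to 118.

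Muc15, which encodes a mucin of the milk fat globule membrane and was chosen after its values were seen, was highest in the same lungs as Csn3. It was the closest to Csn3 of a list of 26 milk fat and lactation genes, most of which did not follow it: Spearman rho over the 12 libraries, a description, ran from -0.61 (Spp1) to 0.87 (Muc15), with Xdh at -0.53 and Fasn at -0.38. Next to Muc15 came Folr1 (0.67), Lao1 (0.64, on 17 reads in all) and B4galt1 (0.51). For the list's sum, to which abundant genes such as Scd1 add most, rho was -0.36. Muc15 was at 1.66, 1.21, 0.0586 and 0.0549 CPM in WT 1 to 4, at 0, 0.146, 0.0278 and 0 in C3 KO 1 to 4, and at 0.0568, 0.0248, 0.744 and 1.01 in S1pr1 KO 1 to 4. The 4 libraries highest in Muc15 were the 4 highest in Csn3, though WT 1 led rather than S1pr1 KO 4. 

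Markers of other tissues marked 2 of these lungs. The skeletal muscle actin Acta1 was at 98.6 CPM in WT 2 and 64.5 in the library labelled S1pr1 KO 2 and at 2.46 or less elsewhere. The basal keratins Krt5 and Krt14 were at 39.6 and 12 in WT 2, above all others. Krt15 was at 26.0 there and at 24.2 in the library labelled S1pr1 KO 2. Of the 10 basal and myoepithelial genes listed, Trp63, Snai2 and Mylk also peaked in WT 2. Krt17 and Lgr6 peaked in the library labelled S1pr1 KO 2, Oxtr in S1pr1 KO 3 and Cnn1 in WT 3. The adipocyte hormone Adipoq was at 32.9 in the library labelled S1pr1 KO 2 against 0.702 to 8.68 in the rest. WT 2 was thus high in milk genes, in muscle genes and in Krt5, Krt14 and Krt15 alike. The part of adjoining tissue in the milk protein reads was not tested in any lung. In WT 1, S1pr1 KO 3 and S1pr1 KO 4, where Csn3 was at 8.03, 19.0 and 25.4, Acta1 was at 2.46, 0.133 and 0.356. Krt14 was at 0.585, 3.82 and 0.891 in the same lungs, where its median over the 12 libraries was 0.509. Krt5 was at 0.702, 4.06 and 3.18, with a median of 1.47. Spearman rho with Csn3 was 0.66 for Krt14, 0.26 for Krt5 and 0.20 for Acta1. Leaving out WT 2 and the library labelled S1pr1 KO 2 together left 0 members called in each comparison, with a log2 fold change of -1.32 for Csn3 in C3 KO against WT, and one of 1.98 when S1pr1 KO was compared with WT.

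Proliferation markers were highest in the 2 lungs with the most Csn3. The 12 genes summed to 148 CPM in S1pr1 KO 4 and 122 in S1pr1 KO 3 and to 56.7 to 96.3 in the other 10, and Mki67 was at 43.1 and 38.6 against 15.9 to 30.2. In WT 1 and WT 2, next in Csn3, the sum was 84.1 and 79.9, inside the range of the rest. The part of proliferating cells in the milk protein reads was not tested. None of the 12 passed in any comparison, the median being 0.36 in S1pr1 KO against WT. Nor did a gene of the alveolar, basal, high endothelial, adipocyte, skeletal muscle, exocrine gland or B lymphocyte lists. In S1pr1 KO against WT the airway list had 1 gene of 10 that rose, Ccdc153 of motile cilia (log2 0.89, edgeR adjusted p = 0.0295), and the T lymphocyte list 2 of 9 that fell, the co-receptor Cd4 (log2 -1.10, edgeR adjusted p = 0.0276) and Cd6 (log2 -1.73, edgeR adjusted p = 0.0389).

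**Figure D4:**
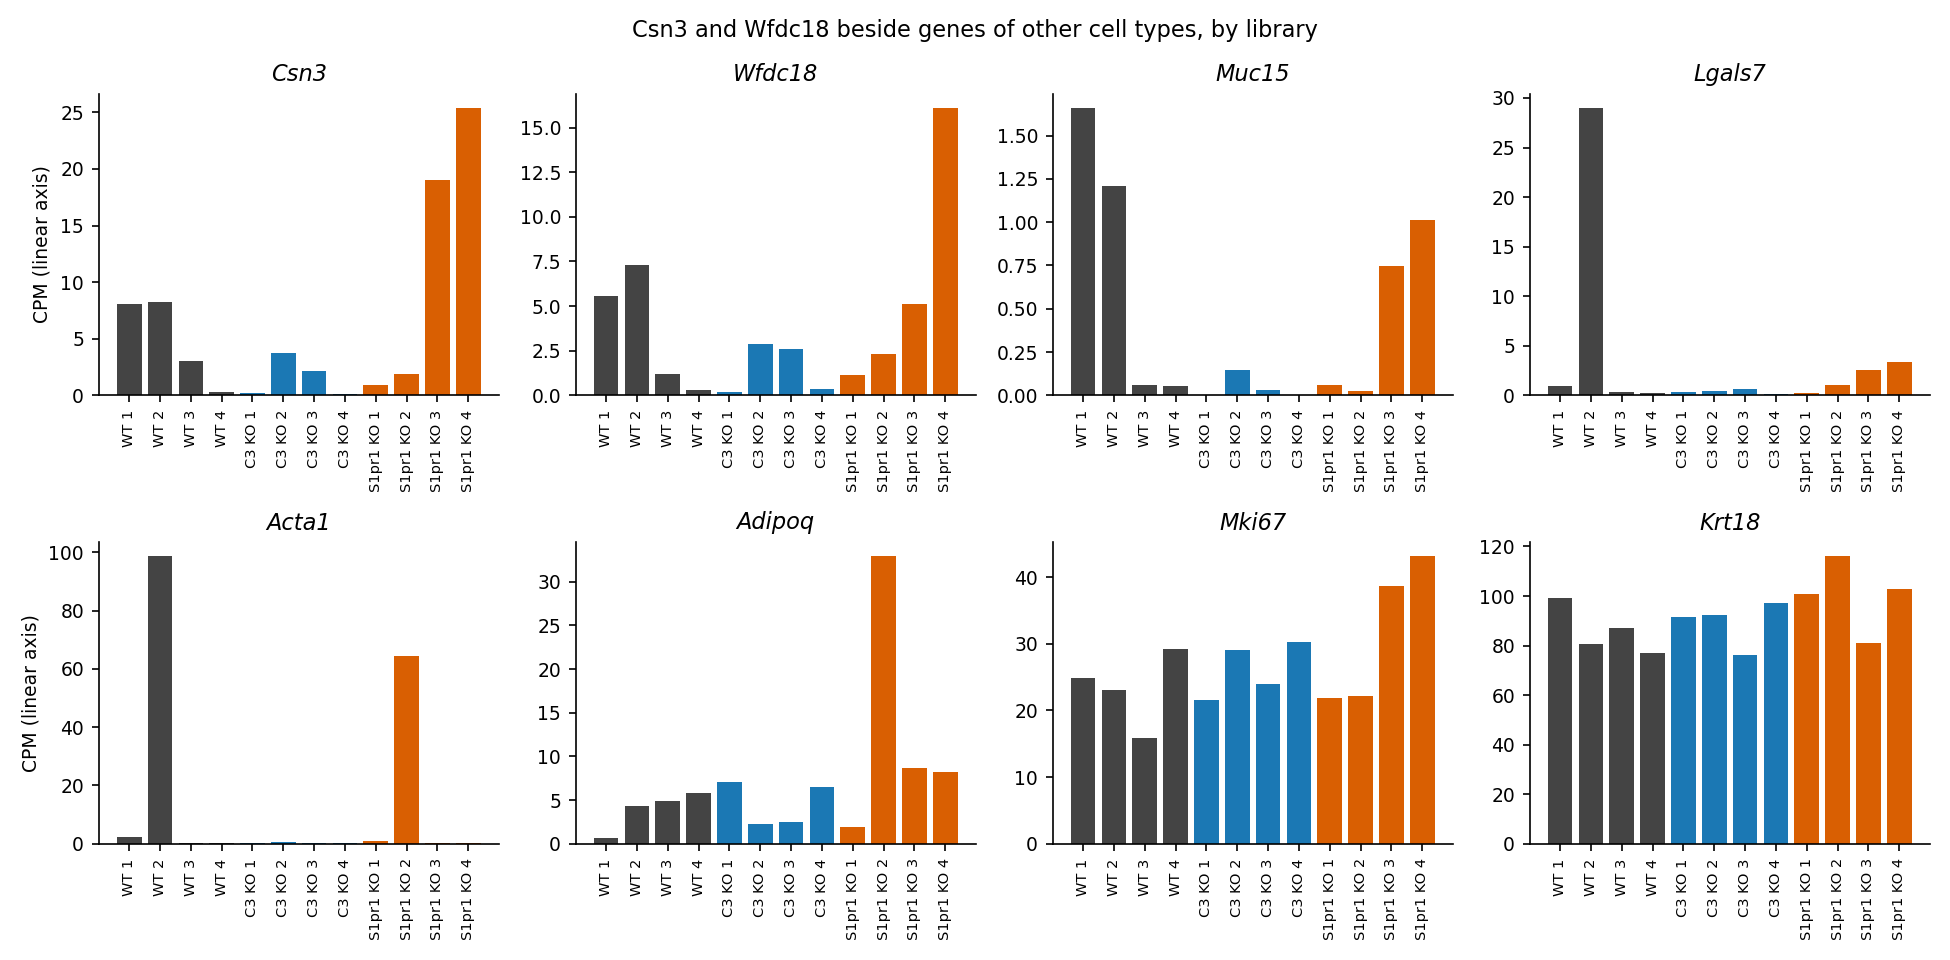
CPM (linear axes from 0) of Csn3 and Wfdc18 beside Muc15, Lgals7, the muscle actin Acta1, the adipocyte gene Adipoq, the proliferation marker Mki67 and the keratin Krt18 in each library, 1 bar per library, coloured by genotype. Csn3 and Muc15 share their 4 highest lungs, Acta1 stands out in WT 2 and S1pr1 KO 2, and Krt18 lies between 76.0 and 116 throughout.

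Across 14112 other protein coding genes, those ranked most like the summed level of the 6 casein and whey genes over the 12 libraries were the glutathione transferase Gstm4 (rho = 0.92) and the interferon-induced Oas2 (rho = 0.89), followed by Il18bp (0.87), Exoc2 (0.86), Fastkd3, Lgals7, Map2k6 and Oas1a (0.85 each). Exoc2 and Fastkd3 varied little, from 50.1 to 62.0 and from 8.19 to 10.1 CPM. Gstm4 ran from 6.51 to 10.6 and Oas2 more widely, from 11.8 to 37.3. Lgals7, which encodes galectin-7 of stratified epithelia, varied as widely as the milk genes, at 29.0 CPM in WT 2, 3.32 and 2.58 in S1pr1 KO 4 and 3, and 0.154 to 0.994 in the rest. Gstm4 (0.93) and Lgals7 (0.85) were also among the 4 genes closest to Wfdc18. The genes closest to Glycam1 were others, led by Zdhhc21 (0.94) and Tmx4 (0.92), and those closest to Elf5 were led by Wdr6 (0.96) and to Btn1a1 by Pgm2 (0.86). With 12 points these ranks describe the libraries, which share depth and tissue make-up, and carry no test.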

How the data were processed

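Lung RNA libraries of 12 samples, 4 per genotype, were grouped by the genotype label, with replicate numbers in deposition order that pair nothing. The deposited read counts are whole numbers per gene, 1 column per library. CASAVA and STAR with GRCm39 (mm39) stand in the submitters' processing notes; how reads were counted, with which strand setting and annotation, is not given in the sources used here. The deposited FPKM values match the same counts divided by listed gene length and by a library size that was 0.997 to 1.01 times the TMM size computed here. FPKM served for levels between genes and for 2 alternatives. Gene names and coordinates are those of the table.

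Counts were tested with edgeR 4.0.16 (R 4.3.3): filterByExpr (minimum count 10) left 20229 genes, TMM scaling, a quasi-likelihood fit with 1 mean per genotype over 12 libraries, and Benjamini-Hochberg adjustment over all genes tested, threshold 0.05. SE is the absolute log2 value divided by the root of the F statistic; approximate 95% intervals use 9 residual degrees of freedom and so can be wider than the test. CPM use TMM-scaled totals (32274797 to 53063470 counts before scaling), and log2 CPM adds 0.5 counts. Correlations used permutation tests of 100000 resamples. Pearson correlations between libraries on the log2 CPM scale lay between 0.957 and 0.986, and no 2 libraries were treated as one.

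Members, gene lists and tests were chosen with earlier results of these data known. All members are named. List genes are those called or among the 4 of highest FPKM. Prlr, Stat5a, Stat5b, Erbb2, Madcam1, Krt5, Krt14, Krt17, Trp63, Lgr6, Oxtr, Adipoq, Lipe, Muc15, Folr1, Lao1, B4galt1, Spp1, Xdh and Fasn were chosen after their values were seen. Alternatives were DESeq2 1.42.0, limma 3.58.1 (voom with quality weights; log2(FPKM + 1) and log2(FPKM + 0.1)), RLE and upper-quartile scaling, other filters, only the groups compared, and libraries left out. Leaving out WT 2 and the library labelled S1pr1 KO 2 together was chosen after seeing the data.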

Additional observations from a re-analysis of the deposited data

Results flagged for a closer look

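Of 30 tests of a gene in a group of 4 libraries, 1 found a library whose gap to its neighbour exceeded Dixon's 95% critical value for 4 samples: Wap in C3 KO 3 had 1 read where the other C3 KO libraries had 0, a gap of 0.886 of the group's range on the log2 CPM scale. Chance flags about 1 in 20 groups, and 1 read has an exact Poisson 95% interval of 0.0253 to 5.57.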

How the results depend on the processing

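Of the members fitted, none was called in the 3 comparisons under the 23 alternatives; each alternative fitted 3 to 10 members, all 10 only without a filter. The lowest adjusted p was 0.41 in C3 KO against WT, 0.0638 in S1pr1 KO against WT and 0.221 in S1pr1 KO against C3 KO. Of 399 log2 values under the alternatives 383 kept their sign. With limma voom and quality weights Csn2 was at -0.15 in C3 KO against WT and Elf5 at 0.04 in S1pr1 KO against WT; Elf5 was at 0.09 there when both libraries whose targeted gene went against the label (C3 KO 4, S1pr1 KO 2) were left out, and at 0.1 without WT 2 and the library labelled S1pr1 KO 2. With the pair that went against its labels left out, Csn1s1 was at -0.32 and Csn2 at -0.04 in S1pr1 KO against C3 KO. Leaving out 1 library gave, against WT, -0.28 to 2.01 for Csn1s1 and -0.39 to 2.72 for Glycam1 in C3 KO, and -0.34 to 1.37 for Wfdc18 and -0.1 to 0.09 for Elf5 in S1pr1 KO. Between the knockouts it gave -0.37 to 1.75 for Csn1s1 and -0.03 to 1.82 for Csn2. The causes were not tested. Over all genes the 274 calls in S1pr1 KO against WT became 1279 with DESeq2 and 928 with limma voom, 2 without S1pr1 KO 4, 5 without WT 4, and 571 when the library labelled C3 KO 4 was left out; DESeq2 gave 172 for the 2 in C3 KO against WT. DESeq2 gave no adjusted p for 3 of the 6 members in C3 KO against WT, and a filter of 1 CPM in 4 libraries left 3 members, as did fits of only the groups compared in both comparisons against WT. Detection depends on the minimum: Csn2 reached 10 reads in 6 libraries, 3 reads in 9 and 30 reads in 1. No paired analysis was possible because the labels give no replicate numbers shared between groups.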
